A study of Capra hircus with 30 samples.

Results

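The NOTCH genes described here are 10 genes of 20125 features in the goat granulosa cell table: the receptors NOTCH1, NOTCH2 and NOTCH3, the ligands JAG1, JAG2 and DLL3, the DNA-binding factor RBPJ, the coactivators MAML2 and MAML3, and the target gene HES1. They were chosen by gene symbol, through the NCBI gene numbers that the table gives and the RefSeq gene entries of goat assembly ARS1.2, and all 10 symbols were found.

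NOTCH signaling passes between cells that touch. A ligand of the Jagged or Delta-like family on one cell binds a NOTCH receptor on its neighbour, proteases then release the intracellular part of the receptor, and in the nucleus that part joins RBPJ and a Mastermind-like coactivator to switch on target genes such as the HES and HEY repressors. In the ovary the pathway is known for contacts between the oocyte and granulosa cells in early follicles and for vessel growth around the follicle.

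RNA was sequenced from granulosa cells, which surround and support the oocyte, of ovaries of the Ji'ning grey goat. There were 6 groups of 5 libraries. HLG, HMG and HSG came from large, medium and small follicles of goats with large litters (high fertility), and LLG, LMG and LSG came from large, medium and small follicles of goats with small litters (low fertility). The labels give no treatment, and no age of the goats was used here. Libraries carry the numbers 5, 7, 8, 9 and 10 in every group. According to the study's methods, follicles of several goats in a class were collected together and the cells were divided into samples of few cells, and the animal of each library is not stated. Thus the p-values measure the spread between libraries, which may be technical and may not be the spread between animals.

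Values were FPKM, read fragments scaled to transcript length and to library size, so the number of reads behind a value is unknown. The number of features above 0 ranged from 301 to 9256 per library. Large follicle libraries held fewer of them (14.0% of all values above 0) than small (24.7%) or medium ones (32.6%). An FPKM of 0 was not read as absence of a transcript, because 19 genes that every cell uses were each above 0 in only 2 to 26 of the 30 libraries. Therefore a gene is called "listed at 0" below. Of 12 granulosa cell markers 11 were in the table. They were above 0 in a median of 8 libraries each, against 5 for all features and 13 for the 19 genes above. Markers of other cells had medians of 10 (2 theca), 6 (7 immune) and 5.5 (8 pericyte and smooth muscle). The medians were 5 for 9 endothelial, 3 for 2 erythroid and 2.5 for 8 oocyte markers. The gap junction gene GJA1 was above 0 in 18 libraries, INHBA in 14, INHBB and CYP19A1, the aromatase that makes estradiol, in 10, and FST and GATA4 in 8. The other granulosa markers were seen less often: NR5A2 in 5 libraries, LHCGR in 4 and INHA in 2. FSHR, the FSH receptor, and AMH were each above 0 in 1 library. In such samples fewer cells of a type and less RNA per cell cannot be told apart.

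Of the 300 values of the 10 NOTCH genes (10 genes in 30 libraries), 91 were above 0 and 209 were listed at 0. Among the values above 0, 30 were at most 0.1 FPKM, 40 lay between 0.1 and 1 FPKM, and 21 reached 1 FPKM. MAML2 was above 0 in 19 libraries, NOTCH2 in 17, MAML3 in 16, JAG1 in 12, NOTCH1 and RBPJ in 8 each, HES1 in 6, JAG2 and DLL3 in 2 each and NOTCH3 in 1. The median feature of the table was above 0 in 5 libraries. MAML2 was seen more often than 94.4% of all features and NOTCH2 more often than 91.0%, while JAG2 and DLL3 were seen more often than only 13.3%. Being above 0 in 16 or more libraries was met by 3 of the 10 genes and by 11.1% of all features. The frequently seen genes are long ones: the 4 members spanning at least 100 kb in the RefSeq entries (NOTCH2, RBPJ, MAML2 and MAML3) had a median of 16.5 libraries against 10 for all 2468 features of that span, and the 6 shorter members had a median of 4 libraries against 5.

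**Figure D1:**
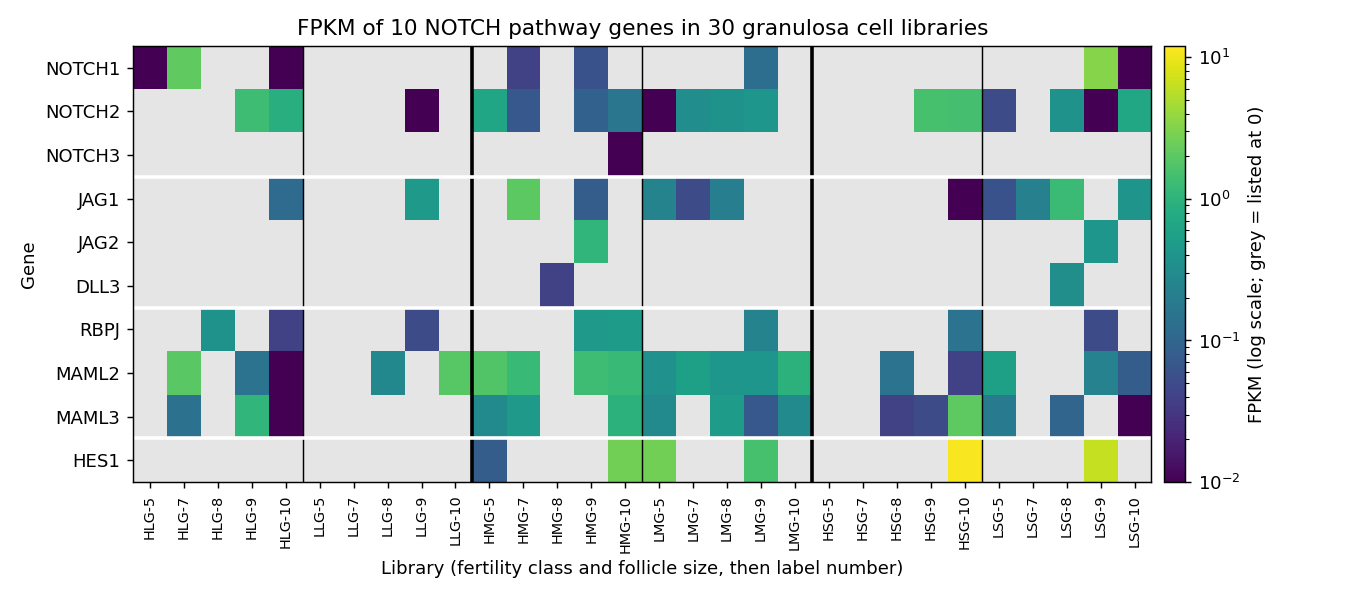
Heat map of FPKM (colour, log scale) for the 10 NOTCH genes (rows) in the 30 libraries (columns, large, medium and small follicles from left to right, with high before low fertility), where grey cells are listed at 0. NOTCH2, MAML2 and MAML3 fill the most cells (17, 19 and 16), NOTCH3 fills 1, and the highest value is 11.11 FPKM for HES1 in HSG-10.

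NOTCH2 was the most frequently seen receptor. In large follicles it was 1.34 FPKM in HLG-9, 0.87 in HLG-10 and 0.01 in LLG-9, and the other 7 libraries were listed at 0. In medium follicles the HMG libraries gave 0.64, 0.07, 0, 0.09 and 0.16 FPKM, and the LMG libraries gave 0.01, 0.32, 0.37, 0.42 and 0 (in the order 5, 7, 8, 9 and 10). In small follicles it was 1.53 in HSG-9, 1.49 in HSG-10, 0.69 in LSG-10, 0.37 in LSG-8, 0.05 in LSG-5 and 0.01 in LSG-9, with the other 4 at 0. Thus NOTCH2 was above 0 in 3 of 10 large, 8 of 10 medium and 6 of 10 small follicle libraries, and all the size classes overlapped. The order by level was not the order by detection: at 0.5 FPKM or more there were 2 large, 1 medium and 3 small libraries.

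NOTCH1 was above 0 in 3 large, 3 medium and 2 small follicle libraries. It passed 1 FPKM only in HLG-7 (2.10) and LSG-9 (3.31). In the remaining libraries it was at most 0.13 FPKM, the value of LMG-9, and lay at 0.01 in HLG-5, HLG-10 and LSG-10, 0.04 in HMG-7 and 0.06 in HMG-9. The high levels of NOTCH1 therefore came from 1 library each of a large and a small follicle group. NOTCH3, the receptor best known from vascular smooth muscle, was 0.01 FPKM in HMG-10 and listed at 0 in the other 29 libraries.

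Among the ligands, JAG1 was above 0 in 2 large, 5 medium and 5 small follicle libraries. The large follicle values were 0.12 in HLG-10 and 0.46 in LLG-9. The medium follicle values were 1.99 in HMG-7, 0.08 in HMG-9, 0.24 in LMG-5, 0.05 in LMG-7 and 0.21 in LMG-8. In small follicles JAG1 was 1.26 in LSG-8, 0.39 in LSG-10, 0.22 in LSG-7, 0.06 in LSG-5 and 0.01 in HSG-10. So JAG1 was seen in 4 of 5 LSG libraries and 1 of 5 HSG libraries (Fisher's exact test, two-sided, p = 0.206). JAG2 appeared in HMG-9 (1.07 FPKM) and LSG-9 (0.41), and DLL3, a divergent family member that is known mainly as an inhibitor of signaling in the same cell, appeared in HMG-8 (0.04) and LSG-8 (0.33). Neither was above 0 in a large follicle library. Each was above 0 in only 2 of the 30 libraries, and large follicles had the smallest share of all values above 0 (14.0%). How many of all features had this pattern was not determined.

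MAML2 was above 0 in 5 of 10 large, 9 of 10 medium and 5 of 10 small follicle libraries. The HMG libraries gave 1.76, 1.18, 0, 1.34 and 1.23 FPKM and the LMG libraries gave 0.36, 0.56, 0.41, 0.42 and 0.94 (order 5, 7, 8, 9 and 10). In large follicles MAML2 was 1.95 in HLG-7, 1.90 in LLG-10, 0.27 in LLG-8, 0.15 in HLG-9 and 0.01 in HLG-10. In small follicles it reached at most 0.56 (LSG-5), with 0.23 in LSG-9, 0.15 in HSG-8, 0.08 in LSG-10 and 0.04 in HSG-10. At 1 FPKM or more MAML2 was found in 2 large, 4 medium and 0 small follicle libraries. Of all features, 4.62% were likewise above 0 in at least 9 of the 10 medium follicle libraries.

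MAML3, the other coactivator, was above 0 in 3 large, 7 medium and 6 small follicle libraries. Its highest values were 2.09 FPKM in HSG-10, 1.06 in HLG-9 and 0.96 in HMG-10, 1 library in each size class. The other medium follicle values were 0.30 in HMG-5, 0.45 in HMG-7, 0.30 in LMG-5, 0.49 in LMG-8, 0.07 in LMG-9 and 0.30 in LMG-10. In the remaining large and small follicle libraries it was at most 0.19 (LSG-5). RBPJ, which every canonical NOTCH response needs, was above 0 in 3 large, 3 medium and 2 small follicle libraries and never reached 1 FPKM. It was 0.38 in HLG-8, 0.04 in HLG-10, 0.46 in HMG-9, 0.51 in HMG-10, 0.15 in HSG-10, 0.05 in LLG-9, 0.24 in LMG-9 and 0.05 in LSG-9.

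HES1, a transcriptional repressor and a direct NOTCH target, had few but high values. It was 2.66 FPKM in HMG-10, 0.08 in HMG-5, 2.63 in LMG-5 and 1.53 in LMG-9 in medium follicles, and 11.11 in HSG-10 and 6.42 in LSG-9 in small follicles. In the large follicle libraries HES1 was listed at 0 in all 10. Above 0 its median was 2.65 FPKM, against 0.37 for NOTCH2 and 0.42 for MAML2. HES1 spans 2517 bp in the RefSeq entries, against 179205 bp for NOTCH2 and 410293 bp for MAML2. FPKM is scaled to transcript length and the read numbers are unknown, so these medians do not rank the genes by amount of RNA. The 4 medium against 0 large libraries gave p = 0.0867 (Fisher's exact test, two-sided), or 0.633 adjusted over all features. Of all features, 853 (4.24%) were likewise above 0 in no large and at least 4 medium follicle libraries.

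**Figure D2:**
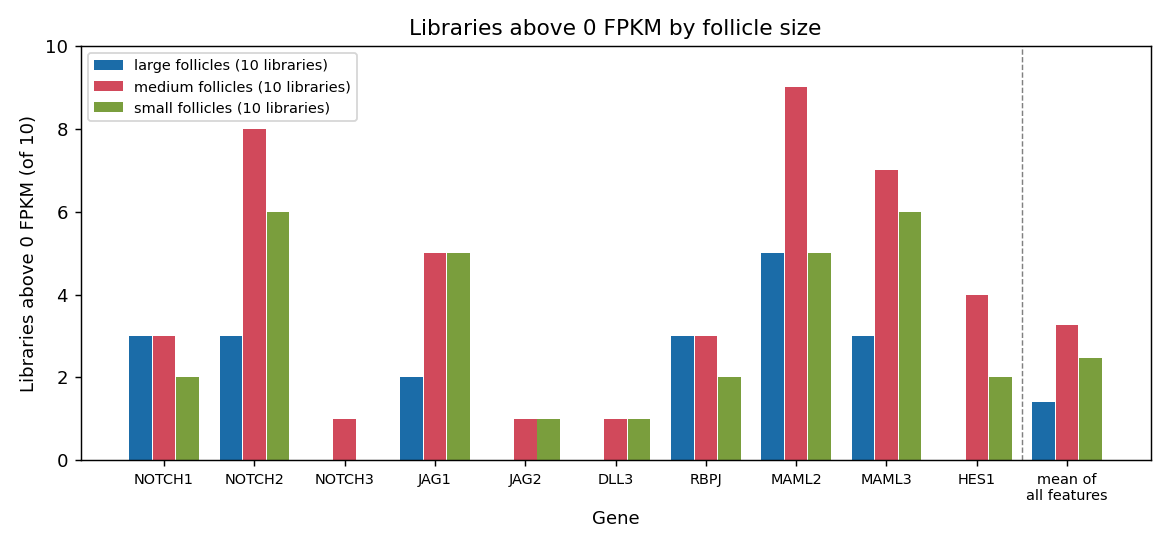
Number of libraries above 0 FPKM (of 10) for each NOTCH gene in large, medium and small follicles (bars), with the mean over all features at the right. NOTCH2, MAML2 and MAML3 had the most medium follicle libraries (8, 9 and 7), and HES1 had 0 large, 4 medium and 2 small.

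For follicle size, the NOTCH genes were above 0 most often in medium and least often in large follicles, as were all features. Of their values, 19% were above 0 in large, 42% in medium and 30% in small follicles, as against 14.0%, 32.6% and 24.7% for all features. The ratio of medium to large follicles was 2.21 for the 10 genes, 2.32 for all features and 2.03 for 56 other genes of the pathway. Medium against small follicles gave 1.4 for the 10 genes and 1.32 for all features, and small against large gave 1.58 and 1.76. Without the 5 libraries with the fewest features above 0 (LLG-7, HSG-5, LLG-5, LLG-10 and HLG-8, chosen after seeing the data), medium against large follicles was 1.48 for the 10 genes and 1.60 for all features. The share of features above 0 thus moved with follicle size to a similar extent, and its part in the NOTCH gene differences was not tested.

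The number of NOTCH genes above 0 also rose with the features above 0 over the libraries. The 10 libraries with the fewest features (301 to 3576) held 16 of the 91 values and a median of 1 NOTCH gene, the middle 10 (3832 to 6156) held 30 values and a median of 3.5, and the top 10 (6328 to 9256) held 45 values and a median of 5. The lowest 10 comprised 7 large, 1 medium and 2 small follicle libraries, and the top 10 comprised 1 large, 7 medium and 2 small. In 4 libraries none of the 10 genes was above 0, and no library showed more than 6.

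**Figure D3:**
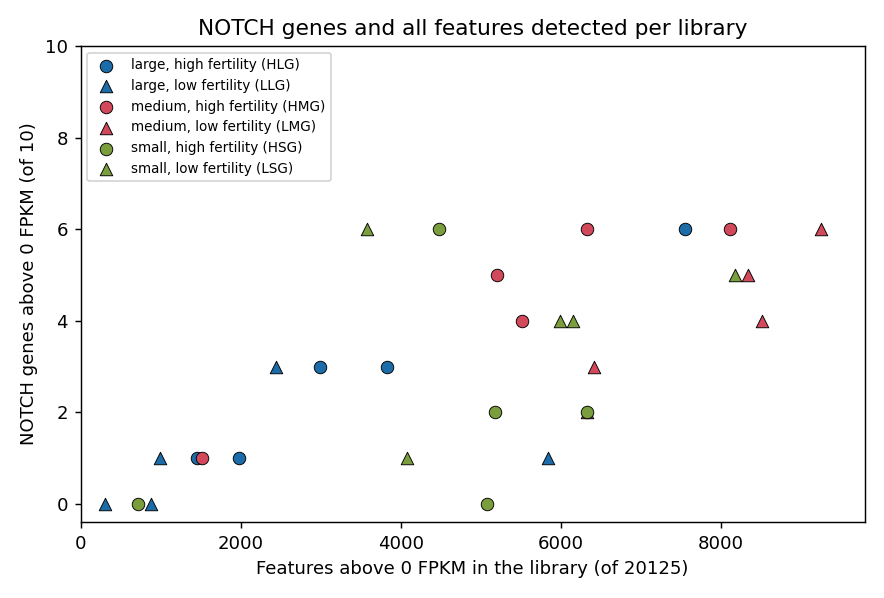
Number of NOTCH genes above 0 (y axis, of 10) against number of features above 0 (x axis) in each of the 30 libraries, coloured by follicle size and shaped by fertility class. Counts run from 0 to 6, and large follicle libraries sit mostly at the left, with the points of HSG-8 and LMG-10 nearly coinciding.

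Differences in level between sizes were tested by limma on log2(FPKM + 1), with both fertility classes together. The test covered 6058 features with more than 0.5 FPKM in at least 5 libraries. Only NOTCH2, MAML2 and HES1 of the 10 genes passed that filter. HES1 did so through exactly 5 libraries, all of medium or small follicles, so its comparisons with large follicles had to lean one way and are given as a description. MAML2 would not have passed without its medium follicle libraries, nor NOTCH2 without its small ones. Their comparisons with those sizes are likewise given as a description. Of these 3, limma called 0 at an adjusted p under 0.05 in each size comparison. The share of all features called was 0.0% between large and small follicles, 0.0165% between medium and small and 0.0% between large and medium. At an unadjusted p under 0.05 the limma counts were 0, 1 and 0 of these 3, against 8.42%, 5.13% and 11.5% of the features. MAML2 was higher in medium than in small follicles by 0.67 ± 0.27 (SE) on the log2 scale, with a 95% interval of 0.13 to 1.21 and an unadjusted p of 0.0166, but the limma adjusted p was 0.934. For large against small follicles, HES1 gave -0.65 ± 0.39 (95% interval -1.43 to 0.13, limma adjusted p = 0.609), with all 10 large follicle libraries at 0. NOTCH2 differed by -0.18 ± 0.22 between large and small and by -0.04 ± 0.22 between large and medium follicles (limma adjusted p = 0.788 and 0.956). Over all features tested, the median log2 difference was -0.19 between large and small follicles, 0.05 between medium and small and -0.25 between large and medium, and a covariate for features above 0 in the fit brought the last of these to 0.00.

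**Figure D4:**
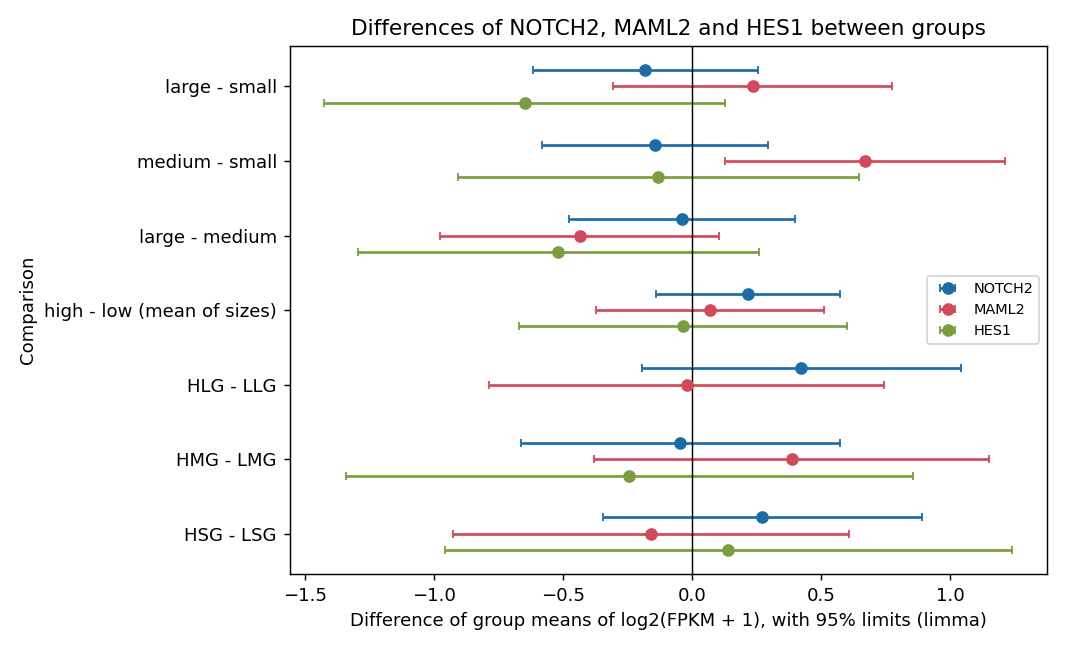
Differences in log2(FPKM + 1) with 95% intervals for NOTCH2, MAML2 and HES1 between follicle sizes and between fertility classes. Each interval crosses 0 except that of MAML2 in medium against small follicles (0.13 to 1.21). MAML2 would not have passed the filter without its medium follicle libraries. The HES1 difference of HLG and LLG is not drawn, as both groups were listed at 0.

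Counting libraries above 0 let all 10 genes be compared. Fisher's exact test (two-sided) over 20125 features called 0 features in each size comparison at an adjusted p under 0.05 (0.0%). At an unadjusted p under 0.05 it gave 335 features between large and small follicles (1.66%), 197 between medium and small (0.979%) and 1241 between large and medium (6.17%). None of the 10 genes was among these. Leaving out any 1 library raised these unadjusted counts, and it also made the groups unequal in size. For large against medium, leaving out 1 library gave 1270 to 2579 features, more than 1.5 times the count above without HLG-10, HMG-5, HMG-7, HMG-8 or LLG-8, and 9 of the 20 such sets held 1 to 3 of the 10 genes. The most were 3 (NOTCH2, HES1 and MAML2) without HMG-8, and 2 (NOTCH2 and HES1) without LMG-10. Without HMG-8, MAML2 also had an unadjusted exact p of 0.0325 for medium against small follicles (adjusted 1). The lowest adjusted p of a NOTCH gene in these was 0.230. The lowest p of the group was that of NOTCH2 in 3 large against 8 medium libraries (exact p = 0.0698, adjusted 0.621). For MAML2, 5 large against 9 medium libraries gave an exact p of 0.141 (adjusted 0.832), and for MAML3, 3 against 7 gave 0.179 (adjusted 0.832). Missing the threshold does not show that the sizes are alike.

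The second question was fertility class. The 10 genes had 46 of 150 values above 0 in the high fertility libraries (30.7%) and 45 of 150 in the low fertility libraries (30%), a ratio of 1.02 against 0.857 for all features. The direction was not stable: without the 5 libraries with the fewest features above 0 the shares were 34.6% and 36.7% (ratio 0.944, against 0.787 for all features), and without the 4 libraries that the mapping list lacks the ratio was 1. By gene, the high and low fertility libraries above 0 (of 15 each) were 5 and 3 for NOTCH1, 8 and 9 for NOTCH2, 4 and 8 for JAG1, 3 and 3 for HES1, 5 and 3 for RBPJ, 9 and 10 for MAML2 and 9 and 7 for MAML3. The widest gap was that of JAG1 (exact p = 0.264, adjusted 1), and 0 of the 10 genes had an unadjusted exact p under 0.05, against 0.85% of all features. Within sizes, the shares of NOTCH values above 0 were 28% in HLG and 10% in LLG, 44% in HMG and 40% in LMG, and 20% in HSG and 40% in LSG, against 17.7% and 10.4%, 26.5% and 38.6%, and 21.7% and 27.8% for all features. NOTCH1 and MAML3 were each seen in 3 HLG libraries and no LLG library (exact p = 0.167). How many of all features had these counts was not determined. LLG-7, LLG-5 and LLG-10 had only 301, 875 and 988 features above 0. Within sizes, too, 0 of the 10 genes had an unadjusted exact p under 0.05, against 0.303% of features in large, 1.49% in medium and 0.626% in small follicles. Here too, leaving out any 1 library made the groups unequal in size and raised the number of features under 0.05. For HLG against LLG, NOTCH1 without HLG-8 or HLG-9 and MAML3 without HLG-5 or HLG-8 had an unadjusted exact p of 0.0476 (adjusted 1), and the features under 0.05 ran from 78 to 303 on leaving out 1 library, against 61 with all. JAG1 in HSG against LSG had the same exact p without HSG-10 or LSG-9.

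In level, limma called 0 of NOTCH2, MAML2 and HES1 for high against low fertility over all sizes, and 0 of all features (0.0%). At an unadjusted p under 0.05 limma gave 239 features (3.95%) and 0 of these 3 genes. NOTCH2 was 0.22 ± 0.18 (SE, log2) higher in high fertility with a limma adjusted p of 0.952, while MAML2 gave 0.07 ± 0.22 (0.987) and HES1 -0.03 ± 0.31 (0.996). NOTCH2 passed the filter with 5 high fertility libraries and 1 low fertility library, so its difference is given as a description. Within a size, limma again called 0 features for HLG against LLG, HMG against LMG and HSG against LSG (0.0% each), and 0 of the 3 genes had an unadjusted p under 0.05, against 4.8%, 5.15% and 6.39% of features. MAML2 was the member with the most separate fertility groups in medium follicles: 4 of 5 HMG libraries lay at 1.18 to 1.76 FPKM, the fifth (HMG-8) was listed at 0, and all 5 LMG libraries lay between 0.36 and 0.94. The groups overlapped through HMG-8 alone, a library with 1521 features above 0. At 1 FPKM or more MAML2 was found in 4 of 5 HMG and 0 of 5 LMG libraries (exact p = 0.0476, adjusted 1). At that limit 60 of 20125 features had an unadjusted exact p under 0.05 in this comparison, and none passed the adjusted threshold. The difference was 0.39 ± 0.38 (limma adjusted p = 1) with HMG-8 and 0.63 ± 0.39 (limma adjusted p = 1) without it. The effect of fertility did not pass a test of difference between sizes for any of the 3 genes (limma interaction, adjusted p = 0.939 for NOTCH2, 0.940 for MAML2 and 0.986 for HES1). That test had an unadjusted p under 0.05 for 4.67% of features and a call for 0.0%.

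Genes of the pathway were then looked at together within libraries. A receptor was above 0 in 19 libraries and a ligand in 14, and both in 12 (2 large, 5 medium and 5 small). A receptor, RBPJ and a MAML coactivator were all above 0 in 6 libraries (1 large, 3 medium and 2 small). In each of the 6 libraries with HES1 above 0, NOTCH2 was above 0 as well, and so was MAML2. NOTCH2 was only 0.01 FPKM in LMG-5 and in LSG-9, and it was above 0 in 17 of all 30 libraries. The share of all features above 0 in all 6 was not determined. The libraries with HES1 above 0 had a median of 6816 features above 0 against 5132 in the others. The 12 libraries with both receptor and ligand had 6243 against 3957. The number of features above 0 therefore moved with these overlaps too, and its part in them was not tested.

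Features with FPKM most like each member were ranked over the 30 libraries by Spearman correlation, as a description. For NOTCH2 they were MDM2 (rho = 0.813), SLC7A11 (0.790) and FMN1 (0.789), and for MAML3 they were HACD2 (0.840), TMEM168 (0.836) and ATAD2B (0.828). JAG1 was most like RPS6 (0.720), and MAML2 was most like S100PBP (0.711). The median over the 5257 features compared was 0.263 for NOTCH2, 0.256 for MAML3, 0.185 for JAG1 and 0.202 for MAML2, and NOTCH2 itself had a rho of 0.541 with the number of features above 0, which all such points share. Among the 10 genes, NOTCH2 and MAML3 were the most alike of the 4 genes compared (rho = 0.586, 13 libraries with both), and JAG1 and MAML2 the least (0.005).

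The remainder of the pathway was described from a list of 61 other genes, of which 56 were in the table. They were above 0 in 1 to 22 libraries, with a median of 6.5, and 17 of them passed the filter for limma. No gene of the list was called by limma or by Fisher's exact test in any of the comparisons. For large against medium follicles 5 of the 17 had a positive and 12 a negative log2 difference, with a median of -0.25, the same as over all features. For high against low fertility 11 were positive and 6 negative (median 0.02 against -0.01).

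Among effectors, HEY2, a NOTCH-responsive repressor of the HES family, was above 0 in 19 libraries (4 large, 9 medium and 6 small) and reached 3.41 FPKM. Its difference of medium against small follicles was 0.81 ± 0.33 (log2, limma unadjusted p = 0.0194, adjusted p = 0.934). HEY2 would not have passed the filter without its medium follicle libraries, so this difference is given as a description. HEY1 was above 0 in 10 libraries. Among coactivators and corepressors, SPEN was seen most often (22 libraries), followed by CREBBP (16), RBPJL and NCOR1 (14 each), MAML1 (13), CTBP2 (12) and KDM5A (11). CTBP2 was 0.42 ± 0.20 higher on the log2 scale in high than in low fertility (limma unadjusted p = 0.0431, adjusted p = 0.952). CTBP2 would not have passed the filter without its high fertility libraries, so this difference too is given as a description. GATA3, a target in other tissues, was above 0 in 13 libraries. CCND1, a cyclin that drives G1 progression, was 0.57 ± 0.27 lower on the log2 scale in large than in medium follicles (limma adjusted p = 0.424), and TLE4, a corepressor recruited by HES proteins, was lower by 0.41 ± 0.19 (limma adjusted p = 0.421). TLE4 was listed at 0 in every large follicle library, and CCND1 would not have passed the filter without its medium follicle libraries. Both differences are therefore given as a description. The TLE4 difference lay within the middle range of all features, whose lower quartile was -0.45 there, and the CCND1 difference lay below that quartile. On counts of libraries, 5 of the 56 pathway genes had an unadjusted exact p under 0.05 for large against medium follicles, against 6.17% of all features, and all 5 had more medium follicle libraries. Of these 5, TLE4 was above 0 in 0 large and 7 medium follicle libraries (exact p = 0.00310, adjusted 0.346). DTX4 gave the same counts and HES5, a sister of HES1, gave 0 and 5 (exact p = 0.0325, adjusted 0.527); these 2 were named after their values were seen. The others were KDM5A and GATA3, each with 1 large and 7 medium follicle libraries (exact p = 0.0198, adjusted 0.468).

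Of the enzymes that act on receptor and ligand, ADAM10, which makes the first cut after ligand binding, was above 0 in 14 libraries (2 large, 6 medium and 6 small). The ubiquitin ligase MIB1, needed in the cell that sends the signal, was above 0 in 21 libraries and ITCH, which marks the receptor for breakdown, in 18. The counts were 17 for NEURL1B, 17 for POFUT1, 15 for FBXW7, 12 for NUMB and 19 for CNTN1. APH1B, a part of the gamma-secretase complex, was above 0 in 12 libraries and was -0.55 ± 0.27 in large against small follicles (limma unadjusted p = 0.0465, adjusted p = 0.581). APH1B passed the filter through exactly 5 libraries, all of medium or small follicles. That difference therefore had to lean one way and is given as a description. ITCH was lower in large than in small follicles by 0.73 ± 0.29 and lower in HSG than in LSG by 1.14 ± 0.41 on the log2 scale (limma adjusted p = 0.557 and 0.570). ITCH would not have passed the filter without its LSG libraries, so both differences are given as a description. By role, values above 0 in large, medium and small follicles made up 20%, 40% and 26.7% for the 3 receptors, 6.67%, 23.3% and 23.3% for the 3 ligands, and 36.7%, 63.3% and 43.3% for RBPJ with the MAML coactivators. Some other roles had their highest share in small follicles: glycosylation enzymes gave 12.5%, 22.5% and 40%, ligand ubiquitination 30%, 40% and 45%, and proteases 12.2%, 24.4% and 25.6%. For all features the shares were 14.0%, 32.6% and 24.7%.

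**Figure D5:**
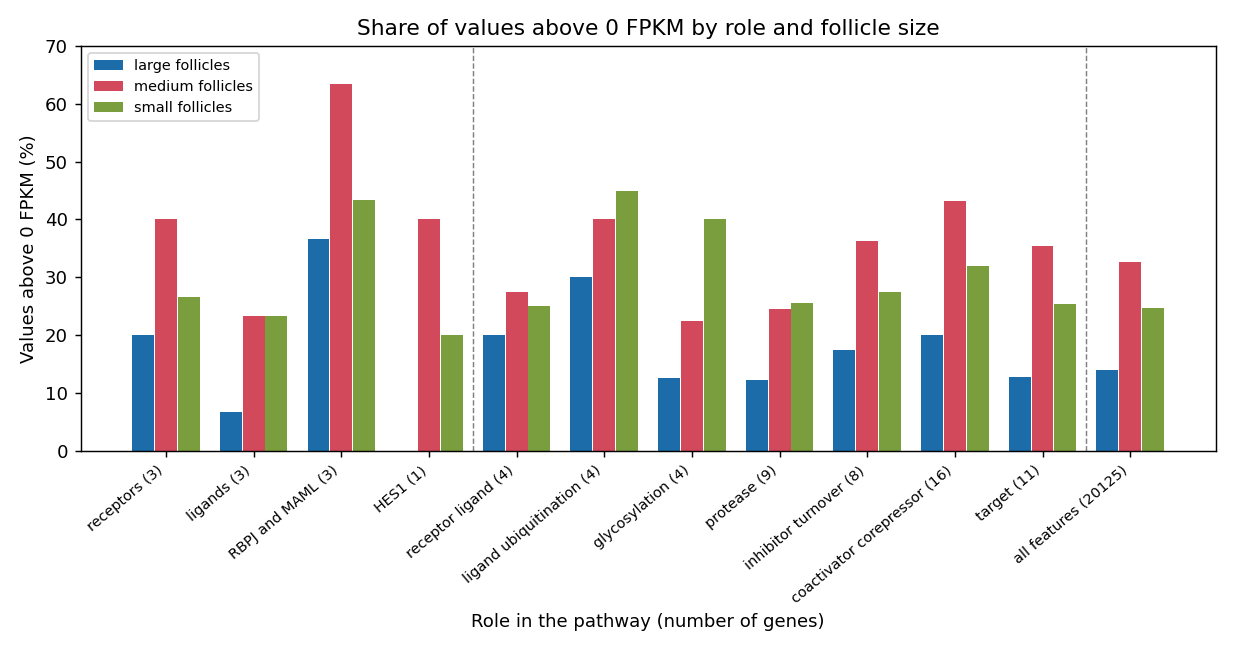
Percent of values above 0 FPKM in large, medium and small follicles for groups of NOTCH pathway genes by role, beside all features. The RBPJ and MAML group reached 63.3% in medium follicles, and in the ligand group medium and small follicles were equal at 23.3%.

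Markers of other cell types were counted in the same way, since NOTCH genes are also used by vessel cells and oocytes. Of 9 endothelial markers measured, values above 0 numbered 10 in large, 24 in medium and 20 in small follicles, and their summed FPKM ran from 0 to 1.18, from 0 to 4 and from 0.03 to 7.64. KDR and FLT1 were above 0 in 14 and 11 libraries, and TIE1 and CLDN5 in 1 each. Of 8 pericyte and smooth muscle markers, values above 0 numbered 11, 22 and 17, and their summed FPKM ran from 0 to 0.58, from 0 to 4.19 and from 0.03 to 2.22. The 11 granulosa markers gave 17, 36 and 28 values above 0 in the same order. Of 8 oocyte markers, values above 0 numbered 7, 17 and 16, with a summed FPKM of 0 to 7.20, 0 to 7.27 and 0 to 11.5. Among them KIT was above 0 in 17 libraries, DDX4 in 7 and GDF9 in 6. In the 6 libraries with HES1 above 0 the oocyte sum ran from 0.03 FPKM in HMG-10 to 10.16 in LSG-9, where ZP3 alone was above 0, and in HLG-7, the other library with NOTCH1 above 1 FPKM, it was 7.20. Immune markers gave 6, 14 and 11 values above 0, the 2 theca markers measured gave 4, 10 and 6, and the 2 erythroid markers gave 3, 1 and 2. All of these lists except the erythroid one moved with follicle size in the direction of the 10 NOTCH genes, and so did all features. For all features 14.0%, 32.6% and 24.7% of values were above 0 in large, medium and small follicles. The part of the other cell types in the NOTCH gene differences was not tested.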

How the data were processed

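Per the labels, total RNA of goat granulosa cells was sequenced in 30 libraries of 6 groups. The deposited table holds FPKM values that the authors computed; the study's methods name Cufflinks and an Ensembl annotation. The aligner and genome build are not given in the sources used here, and values carry 2 decimals. Of 20125 features, 17946 carry an NCBI gene number and 17945 of these matched a RefSeq entry of assembly ARS1.2. Features without a number (2179) stayed in the tests.

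Levels were tested with limma (version 3.58.1, R 4.3.3) on log2(FPKM + 1), a scale that understates changes of low genes. Features needed more than 0.5 FPKM in at least 5 libraries, and 1 fit of 6 group means covered all 30 libraries. Numbers of libraries above 0 were compared with Fisher's exact test (scipy 1.17.1, Python 3.11.15). Tests were two-sided with Benjamini-Hochberg adjustment over all features tested, at 0.05. The tests were first run on simulated data. Alternatives were another pseudocount, no filter, other libraries or weights, a replicate block, a covariate and other detection limits.

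The genes and lists were chosen with earlier results of these data known. All 10 members are named; other pathway genes could be named where called by limma or above 0 in at least 10 libraries (21 genes), and for likeness the 3 features with the highest Spearman correlation. No 2 libraries held identical values (highest Pearson r 0.588). The study's list of mapping rates lacks 4 of the libraries, and an alternative leaves these out. Reads per library are not known; the lowest FPKM above 0 among 789 features with a span of about 1 kb was 0.02 to 0.12.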

Additional observations from a re-analysis of the deposited data

Results flagged for a closer look

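Within groups of 5 libraries, 1 library stood apart from the other 4 by Dixon's criterion in 5 of the 33 sets searched. The sets covered each NOTCH gene in each group where it was above 0 in at least 3 libraries. They also covered the features above 0, the NOTCH genes above 0 and the summed FPKM of each group. All 5 flagged sets were of NOTCH genes, which made up only part of the 33. For normally distributed values chance flags about 1 in 20 sets. The NOTCH gene sets are skewed and hold many values listed at 0, so that rate is no yardstick here. In HLG-7, NOTCH1 was 2.10 FPKM with the other HLG libraries at 0 to 0.01, and MAML2 was 1.95 with the others at 0 to 0.15. In HLG-9, MAML3 was 1.06 with the others at 0 to 0.14. In HMG-5, NOTCH2 was 0.64 with the others at 0 to 0.16. In HSG-10, MAML3 was 2.09 with the others at 0 to 0.05. The causes were not tested.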

How the results depend on the processing

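None of the 10 genes passed an adjusted threshold under any alternative run: the lowest adjusted p was 0.261 over 715 settings of log2 differences and 0.230 over 1020 of detection differences. In limma counts over all features, medium against small follicles (1 in the reported fit) gave 0 without a filter, with only the groups compared, with array weights, with the covariate and without the 4 libraries the mapping list lacks. Large against small gave 1 with a pseudocount of 0.1, and large against medium gave 5 with it and 12 with array weights. HLG against LLG gave 1 with array weights and 1 without the 4 libraries, and HMG against LMG gave 1 with only the groups compared and 1 with array weights. Leaving out 1 library gave 0 to 2 for large against small, 0 to 2 for medium against small, 0 to 4 for large against medium, 0 to 2 for HMG against LMG and 0 to 1 for HSG against LSG. The Fisher count for large against medium gave 0 to 5, with 5 only without HLG-10. At an unadjusted exact p under 0.05, leaving out 1 library raised the Fisher counts in every set, to 357 to 937 features for large against small (335 with all), 239 to 614 for medium against small (197), 230 to 435 for high against low (171), 381 to 684 for HMG against LMG (299) and 217 to 387 for HSG against LSG (126). Library numbers gave little sign of pairing, with a median correlation of deviations of 0.00608 for the same number and -0.00167 for others. For 9 of 30 libraries the mean correlation with the other groups was highest for their own number among the 5 numbers. With the replicate block the medium against small count was 0, and it changed no other count.

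Directions turned in 27 of the 715 log2 settings. NOTCH2 in large against medium became 0.27 with the covariate, 0.016 without the 4 libraries and ran from -0.14 to 0.022 on leaving out 1; in HMG against LMG it became 0.16 with the covariate and ran from -0.17 to 0.013. HES1 in medium against small became 0.16 with the pseudocount and 0.10 with weights; in high against low it became 0.026 without the 4 libraries and ran from -0.087 to 0.026, and in HSG against LSG from -0.0032 to 0.32. MAML2 in high against low became -0.10 with the pseudocount and ran from -0.032 to 0.17, and in HLG against LLG from -0.32 to 0.27. At 0.5 FPKM or more in place of above 0, the difference in percent of libraries turned from 10 to -10 for NOTCH1 and from 20 to -20 for NOTCH2 in medium against small, from -50 to 10 for NOTCH2 in large against medium, and from -6.67 to 26.7 for NOTCH2 and 6.67 for MAML2 in high against low. At 1 FPKM or more these were -10, -20, 10, 20 and 26.7, and MAML3 turned from 10 to -10 in medium against small and from -40 to 10 in large against medium. The causes were not tested. Unknown read depth limits every value near 0, and log2 tests reach only 3 of the 10 genes.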

Other observations

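Values of 5 FPKM or more (a limit set after seeing the data) were rare among the 10 genes and the 56 other pathway genes: there were 16 of them, and 8 lay in the 10 libraries with the fewest features above 0. CNTN1, a neural adhesion protein that can act as a NOTCH ligand, was 39.24 FPKM in LLG-10 and at most 5.31 elsewhere. HEY1, a NOTCH target, was 16.75 FPKM in the same library and at most 4.99 elsewhere, and LLG-10 had only 988 features above 0. NUMB, an inhibitor of NOTCH, was 25 FPKM in LLG-9 and at most 0.68 elsewhere. POFUT1, which fucosylates NOTCH receptors, was 14.86 FPKM in HLG-9, and the coactivator CREBBP was 10.23 in LLG-5. Of the 10 genes, HES1 alone reached this level, in HSG-10 and LSG-9. In HSG-10 the ligand DLL1, named after its value was seen, was 5.07 FPKM and at most 0.83 elsewhere. The causes were not tested.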
